A study of Mus musculus with 12 samples.

Results

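The serotonin receptor family consists here of the 10 receptor genes Htr1a, Htr1b, Htr1f, Htr2a, Htr2c, Htr4, Htr5a, Htr5b, Htr6 and Htr7, all of which couple to G proteins. They were selected on their names from a table of read counts for 14881 genes in the mouse hippocampus, and all 10 were measured in each of 12 mice. No filter on low values removed a receptor; the least abundant, Htr6, had 20 to 35 reads in each library. The family was also chosen by measured values, since earlier results of these data were known, among them the difference in Htr1a between antibody-treated and control mice that had received mVEGF-C. That comparison is therefore given for Htr1a as a description, without a test.

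RNA was sequenced from 1 hippocampus of each of 12 male APPswe mice, which carry a transgene for a mutant human amyloid precursor protein and were 22 to 26 months old. The study asked how delivery of the lymphatic growth factor VEGF-C bears on treatment with an antibody to amyloid beta. There were 4 groups of 3 mice: mVEGF-C+mAdu (numbered 10 to 12), mVEGF-C+mIgG (7 to 9), eGFP+mAdu (4 to 6) and eGFP+mIgG (1 to 3). Every mouse received 5 µL of an AAV1 vector into the cisterna magna, encoding either murine VEGF-C or the fluorescent protein eGFP under the broadly active CMV promoter, and weekly intraperitoneal doses at 40 mg/kg of either mAducanumab, an antibody to amyloid beta, or control mIgG. By the labels all 4 groups carry the transgene, and all received a vector and an antibody. None of the comparisons therefore sets a group against untreated mice or mice labelled as transgene-free.

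Libraries held 23213612 to 29295266 reads assigned to genes, and levels are given as CPM, counts scaled to the library's total with TMM factors. The sample labels name brain meninges as the source although the study text names hippocampus. The CA1 pyramidal markers Wfs1 and Fibcd1 were at 80.6 to 94.3 and 119 to 174 CPM over the 12 libraries, and the dentate granule marker Prox1 at 41 to 57.9 CPM. Measured markers of meningeal fibroblasts (11 of 12 listed) had a median level of 4.23 to 10.3 CPM and a summed level of 258 to 518 CPM. All 11 were lower with mVEGF-C than with eGFP, at median log2 changes of -0.41 with mIgG and -0.60 with mAdu, none passing by edgeR. The part of this shift in the receptor levels was not tested. App, the mouse gene for the amyloid precursor protein, had 1342 and 3716 CPM in mice 5 and 6, both eGFP+mAdu, against 4721 to 5507 CPM in the other 10 mice. Whether mice 5 and 6 carry the transgene that their label names was not tested. The gene ENSMUSG00000045999 took 8.59%, 8.51% and 2.44% of the counts of eGFP+mIgG mice 1 to 3, and 0.0108% to 0.105% in the other 9 mice; the TMM factors were 0.927 to 1.03. Libraries 3, 6, 9 and 12 lay between the other two of their group for 79.2% to 85.9% of genes that varied beyond counting noise, where 33.3% would be an equal share, and for 21 of 40 pairs of a receptor and a group. Differences that passed are therefore, except where stated, also given without mice 5 and 6 and without these 4 libraries. What made these mice and libraries stand apart was not tested.

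Serotonin reaches the hippocampus through axons of neurons in the raphe nuclei of the brainstem, so the receptor transcripts of the target tissue are made locally while those for making and recapturing serotonin are largely made elsewhere. Receptors of the Htr1 and Htr5 classes couple to inhibitory G proteins and lower neuronal excitability or transmitter release, those of the Htr2 class couple to Gq and phospholipase C, and Htr4, Htr6 and Htr7 couple to Gs and raise cyclic AMP. Htr1a is best known in this tissue as the receptor that hyperpolarises pyramidal and granule neurons by opening potassium channels.

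Htr1a was the most abundant receptor transcript per length. On the scale of CPM per kilobase of exon it averaged 8.48 ± 0.683 over the 12 mice (SD), followed by Htr4 at 4.96 ± 0.587, Htr7 at 4.22 ± 0.485, Htr5a at 3.77 ± 0.324 and Htr5b at 3.4 ± 0.283. Lower in the order stood Htr2c at 3 ± 0.255, Htr2a at 2.48 ± 0.149, Htr1b at 2.4 ± 0.246, Htr1f at 1.63 ± 0.176 and Htr6 at 0.481 ± 0.0752 CPM per kilobase. Of the 9 neighbouring pairs in this order, 3 had ranges over mice that did not overlap, namely Htr1a above Htr4, Htr1b above Htr1f and Htr1f above Htr6; the ranges of the other 6 pairs overlapped. The place of Htr2c depends on the length assumed: with its longest transcript (4883 bp) in place of all its exons (9328 bp) it averaged 5.74 ± 0.488 CPM per kilobase, above Htr4 at 5.23. Per the labels the RNA was linearly amplified, a step that can favour 3′ ends, and its effect on this order was not tested.

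**Figure D1:**
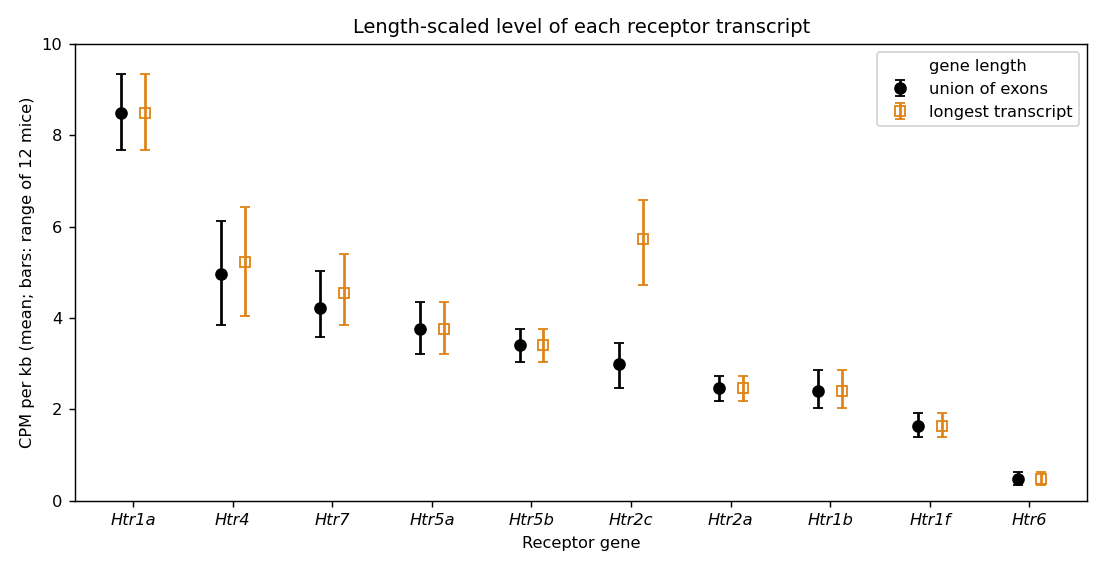
Mean level of each receptor gene in CPM per kilobase over the 12 mice, with bars for their range. Colours mark the length used, all exons or the longest transcript. Htr1a lies above all other receptors in every mouse (7.68 to 9.34) and Htr6 below all others (0.348 to 0.636). With all exons, neighbours between Htr4 and Htr1b overlap.

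Leaving aside its own difference for mAdu with mVEGF-C, Htr1a was the only one of the 10 receptors that passed edgeR's quasi-likelihood test. It was higher in mAdu than in mIgG mice. Taking the mean of both vectors, its level rose by 0.20 on the log2 scale with mAdu (SE 0.0337, 95% interval 0.13 to 0.27). That test gave an adjusted p of 0.0196, by the method of Benjamini and Hochberg across the whole table. In this comparison 38 of 14881 genes passed as higher with mAdu, or 0.255%. The fold changes of the family were positive for 9 of 10 receptors, with a median of 0.10, against a median of 0 over all genes, of which 49.3% were positive; the exception was Htr2a at -0.04. In all, 4 of 10 receptors had an unadjusted p under 0.05, as did 15.5% of all genes. These averages over both vectors contain the Htr1a difference with mVEGF-C that was known when the family was chosen. The call and the counts here are therefore not independent of that choice. With eGFP, whose mice are not part of that difference, the Htr1a change was 0.14 and did not pass (adjusted p = 0.396, edgeR's quasi-likelihood test).

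In a comparison of all 6 mAdu with all 6 mIgG mice, the CPM of Htr1a did not overlap while those of the other 9 receptors did. Genes with the 6 mAdu values all above the 6 mIgG values made up 0.538% of the table. For Htr1a this comparison includes the mVEGF-C mice through which it was first known, so its separation is not independent of that choice. Between all 6 mVEGF-C and all 6 eGFP mice every receptor overlapped, where 1.01% of genes did not. The summed level of the 10 receptors was 175.4, 167.3 and 170.7 CPM in mVEGF-C+mAdu mice, 149.5, 154.7 and 151 CPM in mVEGF-C+mIgG mice, 170.9, 166.6 and 166.5 CPM in eGFP+mAdu mice and 157.7, 157.4 and 158.2 CPM in eGFP+mIgG mice. All 6 mAdu mice thus stood above all 6 mIgG mice in this sum, and they did so without Htr1a as well, at 126.7 to 133.6 against 115.1 to 123.3 CPM. How often sums of other genes separate these mice was not measured. The family was chosen with earlier results known, and none of the other 9 receptors separated the mice alone. Htr1a contributed 22.8% to 24.6% of the sum in mAdu mice and 22.1% to 23.6% in mIgG mice.

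**Figure D2:**
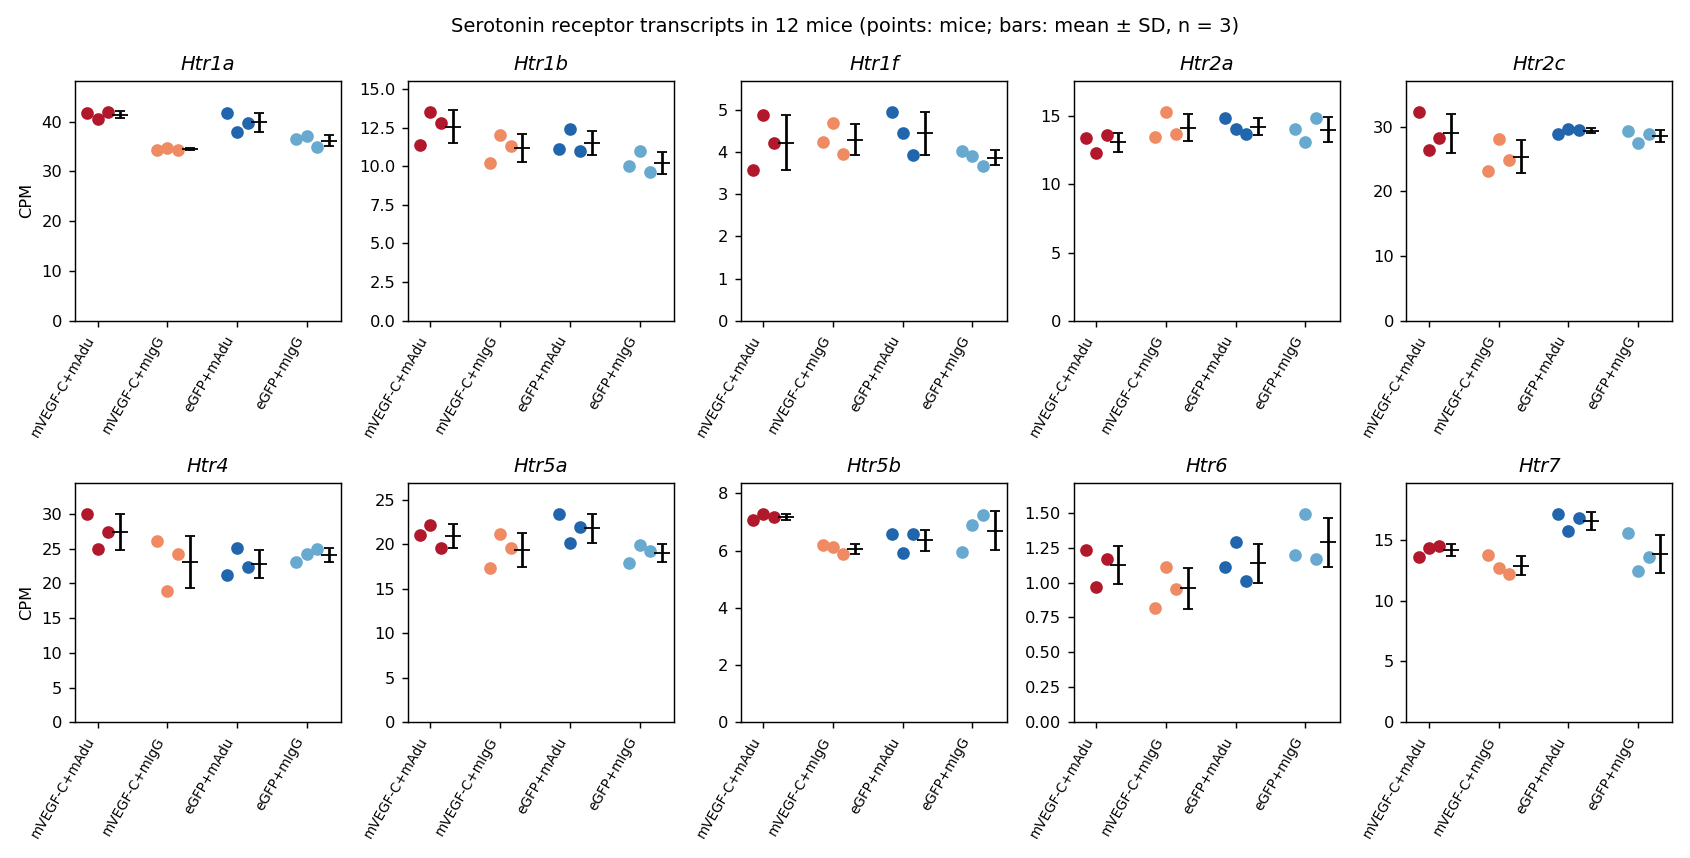
CPM of each of the 10 receptors in every mouse, by group from mVEGF-C+mAdu to eGFP+mIgG, with the group mean. The panel for Htr1a has its 6 mAdu mice at 38.0 to 41.9 CPM, above the 6 mIgG mice at 34.4 to 37.1. These include the mVEGF-C mice through which Htr1a was first known. In the other panels the 6 mAdu and the 6 mIgG mice overlap.

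Htr1a (ENSMUSG00000021721; GRCm38 chromosome 13, 105443639 to 105448122, plus strand, a single annotated transcript of 4484 bp) was at 41.8, 40.6 and 41.9 CPM in mVEGF-C+mAdu mice 10 to 12, against 34.4, 34.7 and 34.4 CPM in mVEGF-C+mIgG mice 7 to 9. With the eGFP vector it was at 41.8, 38.0 and 39.8 CPM in eGFP+mAdu mice 4 to 6, against 36.6, 37.1 and 34.9 CPM in eGFP+mIgG mice 1 to 3. The antibody groups did not overlap with either vector, which 8.37% of genes also showed in this direction with mVEGF-C and 7.63% with eGFP. With mVEGF-C that separation belongs to the difference known beforehand, so that share is no evidence for it. From bulk tissue, a larger number of cells that express a gene cannot be told apart from more of its RNA per cell.

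With mVEGF-C, Htr1a averaged 41.4 ± 0.739 CPM in mAdu mice and 34.5 ± 0.185 CPM in mIgG mice (SD, n = 3 each). The log2 difference of 0.26 (SE 0.0478) is the difference the family was chosen with and is given as a description. With eGFP, whose mice are not part of that difference, it averaged 39.9 ± 1.93 CPM in mAdu mice and 36.2 ± 1.17 CPM in mIgG mice (SD, n = 3 each). The log2 difference there was 0.14 (SE 0.0475, 95% interval 0.04 to 0.24) and did not pass over all genes (adjusted p = 0.396, edgeR's quasi-likelihood test). An exact two-sided permutation test of that single value gave p = 0.1, the smallest that 3 mice against 3 allow. The effect of mAdu did not differ detectably between vectors: the difference of the log2 changes was 0.12 (SE 0.0674, 95% interval -0.02 to 0.27; adjusted p = 0.805 by edgeR).

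Set against mice that received neither agent, mVEGF-C+mAdu mice had Htr1a higher by 0.20 on the log2 scale (SE 0.0476, adjusted p = 0.0443, edgeR's quasi-likelihood test), in a comparison where 177 genes or 1.19% passed as higher. The vector alone gave smaller differences, of 0.05 with mAdu (95% interval -0.05 to 0.16) and -0.07 with mIgG (95% interval -0.17 to 0.03). With mIgG, the 3 mVEGF-C mice were all just below the 3 eGFP mice, as for 5.99% of genes. In the test of any difference among the 4 groups Htr1a had F = 13 (adjusted p = 0.0379 by edgeR), where 92 genes or 0.618% passed. Both of these tests include mVEGF-C+mAdu mice, and the test of any difference contains the very difference known when the family was chosen, so neither is independent of that choice.

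The size of the Htr1a difference was stable over mice while its adjusted p was not. Leaving out 1 library at a time gave 0.18 to 0.22 for the log2 change with mAdu over both vectors, positive in 12 of 12 fits. It passed in 6 of 12; without mouse 1, 3, 6, 9, 10 or 12 the adjusted p by edgeR was 0.052 to 0.0837. Without libraries 3, 6, 9 and 12 the change was 0.19 with an adjusted p of 0.835, and without mice 5 and 6 it was 0.24 with an adjusted p of 0.0267. The comparison of both treatments with neither no longer passed without mouse 1, 3, 6, 9, 10, 11 or 12, at adjusted p of 0.0624 to 0.157, nor without mice 5 and 6, at 0.0562. The test of any difference ended without mouse 1, 3, 4, 6, 9, 10, 11 or 12, at adjusted p of 0.0513 to 0.158 by edgeR.

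The bases around the start of Htr1a are shown because it is the receptor whose level differed, beside those of Htr7, whose mean change with mAdu was as large without passing. Both windows run 5′ to 3′ from 250 bases before to 50 after the RefSeq start (GRCm38.p6; Htr1a chr13:105443443-105443742 on the plus strand, Htr7 chr19:36057311-36057610 on the minus strand), with capitals marking each match to a searched motif.
Htr1a: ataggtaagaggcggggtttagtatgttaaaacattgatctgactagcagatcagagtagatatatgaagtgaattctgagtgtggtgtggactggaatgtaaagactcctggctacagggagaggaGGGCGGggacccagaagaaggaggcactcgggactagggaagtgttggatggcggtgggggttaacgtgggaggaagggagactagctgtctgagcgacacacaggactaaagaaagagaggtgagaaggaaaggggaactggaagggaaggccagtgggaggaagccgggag
Htr7: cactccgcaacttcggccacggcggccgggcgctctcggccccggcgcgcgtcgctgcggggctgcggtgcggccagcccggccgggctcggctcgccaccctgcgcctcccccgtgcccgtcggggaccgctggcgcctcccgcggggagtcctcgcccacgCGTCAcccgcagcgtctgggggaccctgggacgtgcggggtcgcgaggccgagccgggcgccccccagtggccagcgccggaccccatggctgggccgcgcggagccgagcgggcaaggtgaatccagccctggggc
The motifs were searched on both strands in all 32841 windows of this length. The GC box, spelled GGGCGG, occurred in 35.7% of them. The TATA box, spelled TATAAA, was found in 13.6%. The core of the cyclic AMP response element was read as TGACG and was in 20.8%. That of the glucocorticoid response element, read as TGTTCT, was in 19% of windows. The Htr1a window held 1 GC box and no other match, at 52.3% G and C against a median of 52.7% over all windows. The Htr7 window held no GC box and 1 such cyclic AMP core, at 81% G and C, which is above 99.3% of windows. Windows were given for 8 of the 10 receptors, and none of the 8 had a TATAAA match.

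By a measure of likeness computed from the levels (the mean absolute difference of standardised log2 CPM over 12 libraries), the genes closest to Htr1a among 13216 candidates were Dpysl3 at 0.318, Pcdha3 at 0.347 and Lpin2 at 0.348 SD. The closest 1% of genes lay within 0.54 SD and the median was 1.1 SD. Dpysl3, a protein of growing axons, averaged 63.3 CPM, Lpin2, an enzyme of lipid synthesis, 116 CPM, and Pcdha3, a clustered protocadherin that shares exons with its neighbours, 2.68 CPM.

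Markers of the neurons that express Htr1a were measured beside it. The CA1 pyramidal list (9 of 10 measured) had a centred mean log2 level of 0 to 0.08 in mVEGF-C+mAdu mice, -0.14 to 0.01 in mVEGF-C+mIgG mice, -0.06 to 0.07 in eGFP+mAdu mice and -0.04 to 0.06 in eGFP+mIgG mice, so the ranges of mAdu and mIgG mice met near 0 with mVEGF-C and overlapped with eGFP. The dentate granule list (11 measured) stood at -0.09 to 0.02 in mVEGF-C+mAdu, -0.12 to 0.16 in mVEGF-C+mIgG, -0.16 to -0.02 in eGFP+mAdu and 0.12 to 0.15 in eGFP+mIgG mice, lower with mAdu among eGFP mice. From that list Dsp passed as lower for mAdu over both vectors, at -0.45 on the log2 scale (SE 0.0805, adjusted p = 0.0248, edgeR's quasi-likelihood test). From the CA3 pyramidal list (10 measured), Elavl2 passed as higher for both treatments against neither, at 0.25 (SE 0.051, adjusted p = 0.0262 by edgeR). Of all genes, 0.571% and 2.18% passed in these comparisons. Other settings are not given for Dsp and Elavl2. The part of these marker shifts in the Htr1a levels was not tested.

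None of the other inhibitory receptors passed the test. Htr1b, a receptor of axon terminals that reduces transmitter release, was at 11.4, 13.5 and 12.8 CPM in mVEGF-C+mAdu mice, against 10.2, 12.0 and 11.3 CPM in mVEGF-C+mIgG mice. With eGFP it was at 11.1, 12.4 and 11.0 CPM in mAdu mice, against 9.99, 11.0 and 9.64 CPM in mIgG mice. Antibody groups overlapped with either vector, at 11.4 to 13.5 against 10.2 to 12.0 CPM with mVEGF-C. All 3 mVEGF-C+mAdu mice were above all 3 eGFP+mIgG mice, a separation shown in that direction by 13.9% of genes. The log2 difference was 0.31 (SE 0.0904, 95% interval 0.11 to 0.50) and did not pass (adjusted p = 0.0791, edgeR's quasi-likelihood test). For the mean effect of mAdu it was 0.18 (SE 0.0637, adjusted p = 0.197 by edgeR). The antisense gene D430036J16Rik overlaps Htr1b on the opposite strand, averaging 2.26 ± 0.224 CPM in mVEGF-C+mAdu, 2.27 ± 0.522 in mVEGF-C+mIgG, 2.8 ± 0.294 in eGFP+mAdu and 2.34 ± 0.209 CPM in eGFP+mIgG mice (SD, n = 3 each). The strand setting of the counting is not given in the sources used here; the 2 genes may therefore share reads.

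Htr5a, an inhibitory receptor of neurons, was at 21.0, 22.2 and 19.6 CPM in mVEGF-C+mAdu mice, 17.3, 21.1 and 19.6 CPM in mVEGF-C+mIgG mice, 23.4, 20.1 and 21.9 CPM in eGFP+mAdu mice and 17.9, 19.9 and 19.3 CPM in eGFP+mIgG mice. The antibody groups overlapped with mVEGF-C and did not with eGFP, where mAdu was higher, as for 7.63% of genes. The log2 difference with eGFP was 0.20 (SE 0.0788, adjusted p = 0.469), and over both vectors 0.16 (SE 0.056, adjusted p = 0.187), neither passing edgeR's quasi-likelihood test. Without mice 5 and 6, the eGFP+mAdu group is a single mouse, and the difference with eGFP was 0.3 (SE 0.106), with that mouse assumed to vary like the other groups.

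Htr5b, whose human counterpart no longer encodes a working receptor, gave narrow groups with mVEGF-C: 7.07, 7.28 and 7.16 CPM in mAdu mice against 6.19, 6.12 and 5.87 CPM in mIgG mice. With eGFP it was at 6.58, 5.93 and 6.57 CPM in mAdu mice and 5.96, 6.88 and 7.26 CPM in mIgG mice, which overlapped. With mVEGF-C the antibody groups did not overlap and mAdu was higher, as for 8.37% of genes. The log2 difference was 0.24 (SE 0.0966, adjusted p = 0.297 by edgeR). The difference of this change from the one with eGFP was 0.32 (SE 0.136, 95% interval 0.03 to 0.61) and did not pass (adjusted p = 0.707 by edgeR). With mAdu, its mVEGF-C mice were also all above its eGFP mice, as for 11.5% of genes. Htr1f, an inhibitory receptor that is a target of migraine drugs, averaged 4.23 ± 0.66 CPM in mVEGF-C+mAdu, 4.3 ± 0.367 in mVEGF-C+mIgG, 4.45 ± 0.509 in eGFP+mAdu and 3.87 ± 0.176 CPM in eGFP+mIgG mice (SD, n = 3 each). Its ranges overlapped between antibodies with both vectors.

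Of the 2 receptors that couple to Gq, neither passed. Htr2a, the cortical receptor through which psychedelic drugs act, had the smallest SD relative to its mean over the 12 mice, and stood at 13.1 ± 0.732 CPM in mVEGF-C+mAdu, 14.2 ± 0.998 in mVEGF-C+mIgG, 14.2 ± 0.582 in eGFP+mAdu and 14 ± 0.879 CPM in eGFP+mIgG mice (SD, n = 3 each). With mAdu, its 3 mVEGF-C mice (12.3 to 13.6 CPM) were below its 3 eGFP mice (13.7 to 14.9 CPM), a separation that 10.2% of genes showed in that direction.

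Htr2c, whose transcript is edited and which is also strongly expressed in choroid plexus epithelium, was at 32.2, 26.4 and 28.2 CPM in mVEGF-C+mAdu mice and 23.1, 28.1 and 24.9 CPM in mVEGF-C+mIgG mice. With eGFP the values were 28.9, 29.6 and 29.5 CPM in mAdu mice and 29.3, 27.5 and 28.8 CPM in mIgG mice. Groups overlapped for both vectors. The widest spread was among mVEGF-C mice, where the log2 difference between antibodies was 0.19 (SE 0.0763, adjusted p = 0.301 by edgeR) against a mVEGF-C effect with mIgG of -0.17 (SE 0.0762, adjusted p = 0.618).

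**Figure D3:**
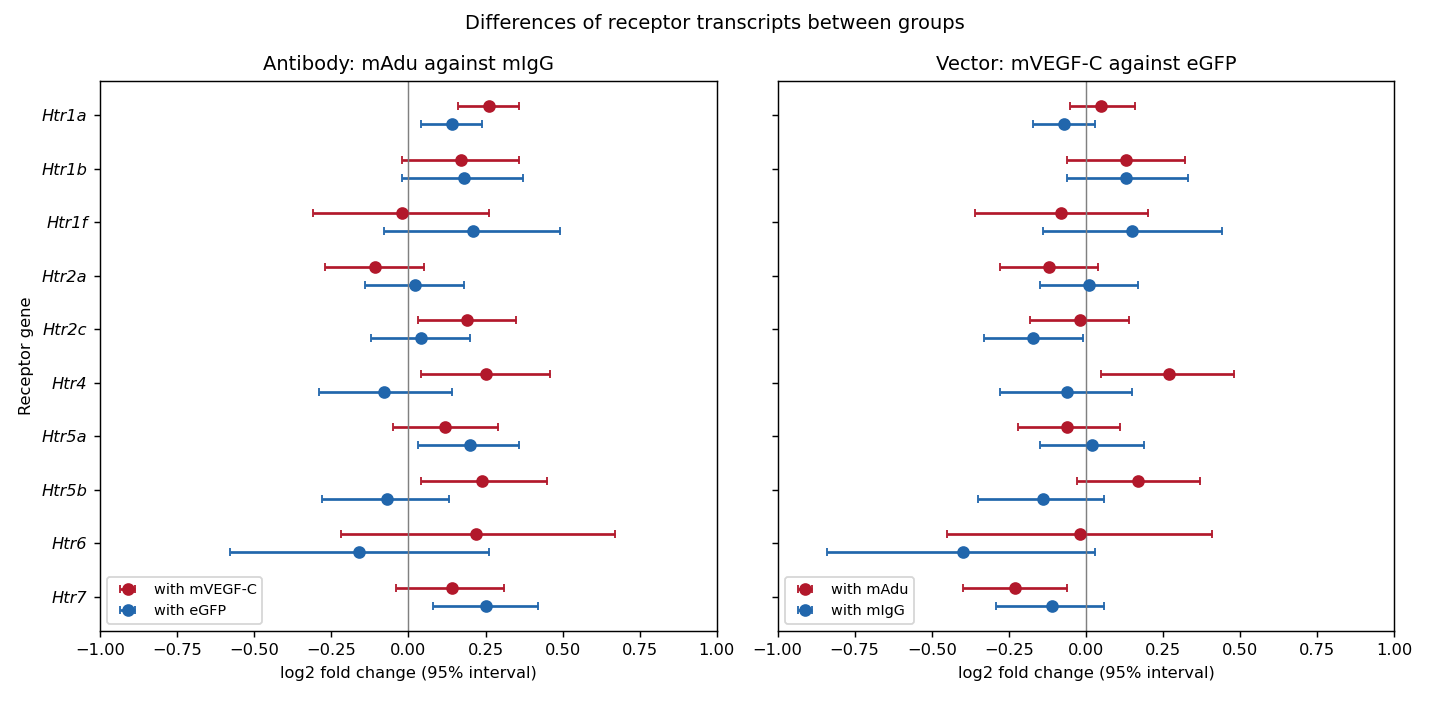
Log2 fold change of each receptor with its 95% interval, in 4 comparisons of an antibody or a vector. For mAdu against mIgG with eGFP, Htr1a has the interval 0.04 to 0.24 and did not pass over all genes. Its interval with mVEGF-C describes the difference the family was chosen with and is no test. The interval of Htr6 for mVEGF-C against eGFP with mIgG reaches from -0.84 to 0.03.

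None of the 3 receptors that couple to Gs passed the test. Htr7, a receptor that makes hippocampal neurons more excitable (ENSMUSG00000024798; GRCm38 chromosome 19, 35958734 to 36057507, minus strand), was at 13.6, 14.3 and 14.5 CPM in mVEGF-C+mAdu mice and 13.7, 12.7 and 12.2 CPM in mVEGF-C+mIgG mice. It reached 17.1, 15.7 and 16.8 CPM in eGFP+mAdu mice, against 15.5, 12.4 and 13.6 CPM in eGFP+mIgG mice. The eGFP+mAdu mice lay above the 9 mice of the other 3 groups, an order that 0.806% of genes showed and that was looked for after the values were seen. Their log2 difference from eGFP+mIgG mice was 0.25 (SE 0.0802, 95% interval 0.08 to 0.42; adjusted p = 0.361), and that of mVEGF-C+mAdu mice from them was -0.23 (SE 0.0803, adjusted p = 0.217), neither passing edgeR's quasi-likelihood test. Over both vectors mAdu gave 0.20 (SE 0.0577, adjusted p = 0.129), and over both antibodies mVEGF-C gave -0.17 (SE 0.0577, adjusted p = 0.183 by edgeR). Without mice 5 and 6, the 1 mouse left gave 0.3 (SE 0.116) for mAdu with eGFP.

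Of the 5 genes (0.0336%) that passed for mAdu with eGFP, Ide and Btaf1 lie near Htr7 on chromosome 19, so the genes between them were measured as well. Btaf1, a regulator of transcription 868.6 kb from Htr7, was higher by 0.45 (SE 0.0366, adjusted p = 1.67e-05), and Ide, an enzyme that degrades insulin and amyloid beta 1211 kb away, by 0.48 (SE 0.038, adjusted p = 1.67e-05; edgeR's quasi-likelihood test for both). Without mice 5 and 6, which leaves 1 eGFP+mAdu mouse assumed to vary like the other groups, they were at 0.42 and 0.47, each with an adjusted p of 0.0126 by edgeR. Without libraries 3, 6, 9 and 12 neither passed, at 0.43 (adjusted p = 0.076) for Btaf1 and 0.47 (adjusted p = 0.0576) for Ide. The nearest gene, Rpp30 at 26.21 kb, had 0.08, and over the 11 neighbours the median was 0.08 with 7 positive, against a median of 0 and 49.2% positive over all genes. In mVEGF-C+mAdu against eGFP+mAdu mice, 5 of the 11 neighbours were negative with a median of 0, against 49.6% of all genes. Btaf1 at -0.22 and Ide at -0.30 passed there (adjusted p = 0.0325 and 0.013, edgeR's quasi-likelihood test), as did 0.047% of all genes. Other settings are not given for these calls. Fgfbp3, at 860 kb, was at -0.38 (SE 0.105) there and at 0.32 (SE 0.104) for mAdu with eGFP, passing in neither. Ppp1r3c was at 0.25 and Hectd2 and Tnks2 each at 0.12 in mVEGF-C+mAdu against eGFP+mAdu mice. Whether the difference in Htr7 belongs to that stretch was not tested.

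**Figure D4:**
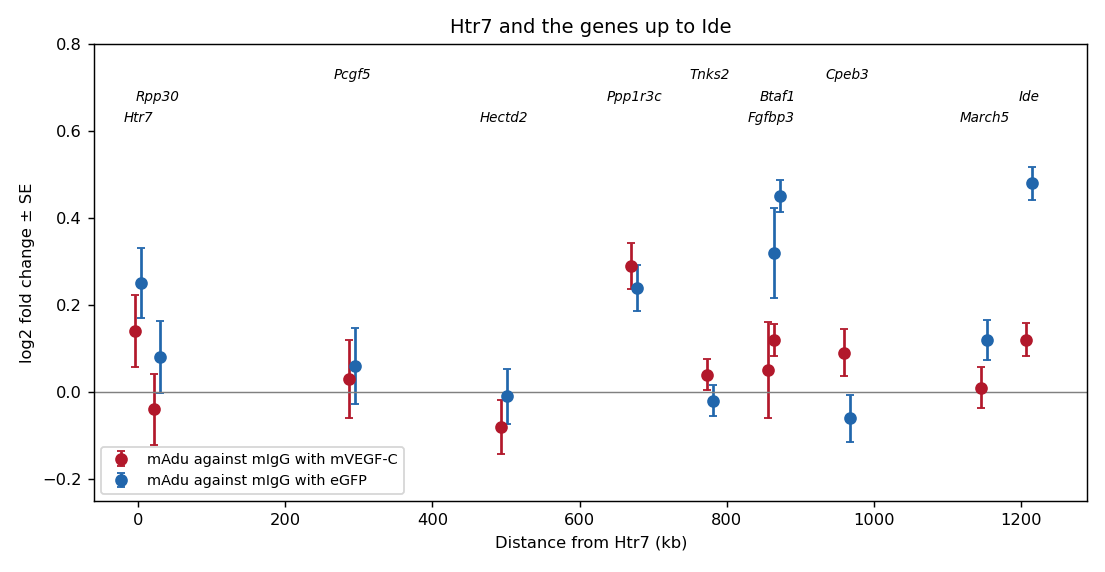
Log2 fold change with its SE of Htr7 and its chromosome 19 neighbours against distance from Htr7 in kb, for mAdu against mIgG with mVEGF-C and with eGFP. Hectd2os, at less than 1 CPM, is not drawn. Btaf1 (0.45) and Ide (0.48) are the highest for mAdu with eGFP, and Htr7 (0.25) stands above its nearest neighbour Rpp30 (0.08).

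Htr4, which excites pyramidal neurons, was at 30.0, 24.9 and 27.4 CPM in mVEGF-C+mAdu mice, 26.1, 18.9 and 24.2 CPM in mVEGF-C+mIgG mice, 21.2, 25.1 and 22.3 CPM in eGFP+mAdu mice and 23.1, 24.2 and 25 CPM in eGFP+mIgG mice. Groups overlapped for both antibodies and both vectors. The log2 difference was 0.25 for mAdu with mVEGF-C (SE 0.1, adjusted p = 0.292) and 0.27 for mVEGF-C with mAdu (SE 0.0995, adjusted p = 0.238), neither passing edgeR's quasi-likelihood test. The difference between vectors in the effect of mAdu was 0.33 (SE 0.142, 95% interval 0.03 to 0.63; adjusted p = 0.707 by edgeR).

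Levels of choroid plexus markers also differed between the mice. Of 12 listed markers 9 were measured, and their centred mean log2 level was -0.64, -0.15 and -0.22 in mVEGF-C+mAdu mice, -0.04, 0.12 and 0.08 in mVEGF-C+mIgG mice, 0.25, 0.12 and 0.21 in eGFP+mAdu mice and 0.05, 0.12 and 0.10 in eGFP+mIgG mice. Their summed level was 295 to 299 CPM in mVEGF-C+mAdu, 297 to 373 in mVEGF-C+mIgG, 339 to 346 in eGFP+mAdu and 303 to 385 CPM in eGFP+mIgG mice. Ttr, the transthyretin gene that defines this epithelium, spanned 14.3 to 74.2 CPM and fell by 1.76 on the log2 scale in mVEGF-C+mAdu against eGFP+mAdu mice (SE 0.244, adjusted p = 0.0176, edgeR's quasi-likelihood test). That call was lost without mouse 4, 6, 11 or 12, at adjusted p of 0.104 to 0.123 by edgeR, and without libraries 3, 6, 9 and 12, at 0.876; without mice 5 and 6 it was 0.0277. Kl, another marker of this epithelium, spanned 17 to 23.8 CPM. Mouse 10, with the lowest marker level, had the highest Htr4 and Htr2c. All 3 mVEGF-C+mAdu mice were below every other mouse in marker level. A fit with this level as a covariate therefore cannot cleanly separate it from that group. With the marker level as a covariate, the Htr4 difference was -0.01 for mAdu with mVEGF-C, -0.09 for mVEGF-C with mAdu and 0 for the difference between vectors, and Htr1a no longer passed for mAdu over both vectors (log2 0.20, adjusted p = 0.076), for both treatments against neither (0.20, adjusted p = 0.48) or for any difference (adjusted p = 0.118), all by edgeR. Htr1b for both treatments against neither was then 0.50 with an adjusted p of 0.284 by edgeR.

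**Figure D5:**
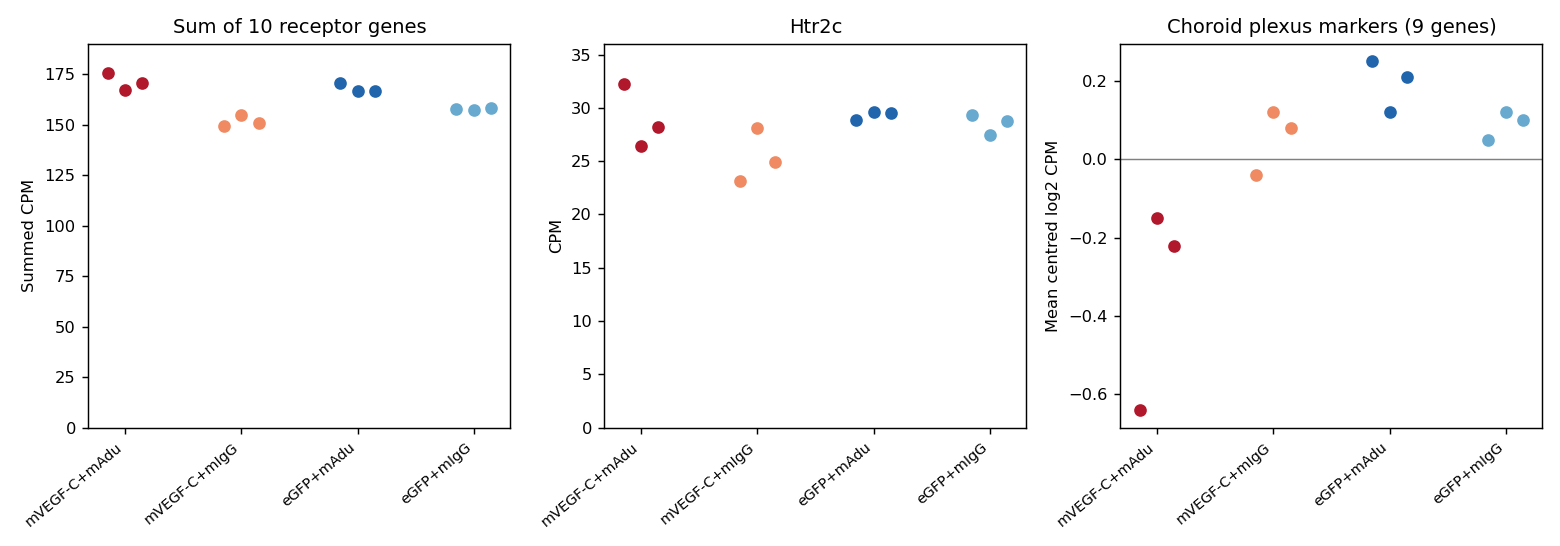
Summed CPM of the 10 receptors and mean level of the choroid plexus markers in each mouse, by group. The 6 mAdu mice lie at 166.5 to 175.4 CPM and the 6 mIgG mice at 149.5 to 158.2 CPM, while the marker level is lowest in the 3 mVEGF-C+mAdu mice.

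Htr6, which is richest in the striatum, averaged 1.12 ± 0.135 CPM in mVEGF-C+mAdu, 0.96 ± 0.149 in mVEGF-C+mIgG, 1.14 ± 0.14 in eGFP+mAdu and 1.29 ± 0.176 CPM in eGFP+mIgG mice (SD, n = 3 each). The 3 mVEGF-C+mIgG mice were below the 3 eGFP+mIgG mice as well, as for 5.99% of genes. The log2 difference was -0.40, with a 95% interval of -0.84 to 0.03 that spans 0. At 20 to 35 reads in a library, smaller differences in Htr6 were not detectable. Striatal markers stood at -0.19 to -0.08 in mVEGF-C+mAdu, -0.07 to 0.17 in mVEGF-C+mIgG, 0.13 to 0.26 in eGFP+mAdu and -0.14 to -0.03 in eGFP+mIgG mice on the centred log2 scale, and their part in the levels of Htr6 was not tested.

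For mAdu with mVEGF-C, the comparison known when the family was chosen, no test is given for Htr1a. The counts of tests there are of the other 9 receptors. By edgeR's quasi-likelihood test 0 receptors passed for mAdu with eGFP (where 0.0336% of all genes did), 0 of those 9 for mAdu with mVEGF-C (0.208%), 0 for mVEGF-C with mIgG (0.0403%) and 0 for mVEGF-C with mAdu (0.047%). An unadjusted p under 0.05 was found for 3 receptors with eGFP (9.21% of all genes) and 3 of 9 with mVEGF-C (12.7%), and for the vector in 1 with mIgG (7.91%) and 2 with mAdu (14.3%). DESeq2 called 0 receptors in these 4 comparisons, leaving out Htr1a with mVEGF-C, where it called 0.422%, 0.847%, 0.134% and 0.947% of the genes with an adjusted p. With limma-voom 2 receptors passed for mAdu with eGFP (3.41% of all genes), 1 of 9 for mAdu with mVEGF-C (8.29%), 1 for mVEGF-C with mIgG (6.3%) and 2 for mVEGF-C with mAdu (6.52%). For mVEGF-C over both antibodies edgeR called 0 receptors (0.39% of all genes), DESeq2 0 (1.18%) and limma-voom 3 (12%), and 1 had an unadjusted p under 0.05. The difference between vectors gave 0 receptors by edgeR (0.0134% of all genes), 0 by DESeq2 (0.0538%) and 0 by limma-voom (1.48%), with 2 at an unadjusted p under 0.05. Signs were 7 positive and 3 negative for mAdu with eGFP (median 0.09), where 49.2% of all genes were positive. With mVEGF-C they were 8 and 2 (median 0.18), against 50.5% of all genes positive. That count and median include Htr1a, whose difference there was known beforehand, and are no evidence for it. The vector gave 4 positive and 6 negative with either antibody, with medians of -0.06 with mIgG and -0.02 with mAdu. Of all genes, 50.2% and 50.4% were positive there. For both treatments against neither, 8 were positive and 2 negative (median 0.11), where 48.9% of all genes were positive. Comparisons that share a group of mice are not independent.

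Other genes of serotonin signalling were followed from lists drawn up with earlier results known. Htr3a, the serotonin-gated ion channel subunit carried by interneurons, averaged 14.9 ± 1.02 CPM in mVEGF-C+mAdu, 13 ± 1.49 in mVEGF-C+mIgG, 14.6 ± 1.06 in eGFP+mAdu and 13.8 ± 0.683 CPM in eGFP+mIgG mice (SD, n = 3 each). Its difference for mAdu with mVEGF-C was 0.19 (SE 0.0888, adjusted p = 0.374 by edgeR). Htr1d, Htr2b and Htr3b were absent from the deposited counts. Tph2, the neuronal enzyme that makes serotonin, was at 0.893 to 1.64 CPM over the 12 mice. Maoa, which breaks serotonin down, averaged 41 ± 1.87 CPM in mVEGF-C+mAdu, 43.2 ± 1.46 in mVEGF-C+mIgG, 41.9 ± 0.558 in eGFP+mAdu and 42.9 ± 2.15 CPM in eGFP+mIgG mice (SD, n = 3 each).

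None of the 12 measured genes of serotonin synthesis, transport and breakdown passed, nor of 11 for inhibitory G proteins and their potassium channels, 20 for Gs and cyclic AMP or 14 for Gq and phospholipase C, in any comparison by edgeR's quasi-likelihood test. Of 19 measured receptor partners and regulators, 2 passed for both treatments against neither, where 2.18% of all genes did: Arrb2, the arrestin that uncouples activated receptors, fell by 0.27 on the log2 scale (SE 0.0592, adjusted p = 0.0319), and Nr3c1, the glucocorticoid receptor, rose by 0.20 (SE 0.0487, adjusted p = 0.0493), both by edgeR's quasi-likelihood test. Arrb2 no longer passed without mouse 1, 3, 6, 9, 10 or 12, at adjusted p of 0.0503 to 0.142 by edgeR. Nr3c1 no longer passed without mouse 1, 3, 4, 5, 6, 9, 10, 11 or 12, at adjusted p of 0.052 to 0.212, nor with DESeq2 size factors, at 0.0513. Without mice 5 and 6 the adjusted p was 0.0383 for Arrb2 and 0.0755 for Nr3c1, and without libraries 3, 6, 9 and 12 both had 0.56. With the choroid plexus covariate, which is lowest in the mVEGF-C+mAdu mice compared here, neither passed, at 0.546 for Arrb2 and 0.355 for Nr3c1 by edgeR. For mAdu over both vectors, 20 of the 77 pathway genes (26%) had an unadjusted p under 0.05, against 15.5% of all genes. The same shares were 14.3% against 9.21% for mAdu with eGFP, 13% against 12.7% for mAdu with mVEGF-C, 11.7% against 7.91% for mVEGF-C with mIgG and 16.9% against 14.3% for mVEGF-C with mAdu. They were 22.1% against 20.4% for both treatments against neither, 20.8% against 16% for mVEGF-C over both antibodies, 27.3% against 17.6% for any difference and 5.19% against 6.82% for the difference between vectors. After adjustment for mAdu over both vectors, edgeR called 0 of the 77, DESeq2 2 (1.76% of all genes with an adjusted p) and limma-voom 12 (11.3% of all genes).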

How the data were processed

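Total RNA from 12 hippocampi was linearly amplified and sequenced, per the labels' protocols. The authors deposited raw counts per gene, without normalization. Per the submitters' processing notes, STAR, featureCounts from Subread, FastQC, Trim Galore and edgeR were used with the build mm10. Not given in the sources used here were versions, annotation, strand setting and the treatment of reads with several matches. Gene IDs were named from GENCODE M21 (GRCm38); 84 IDs had no symbol.

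Groups came from the labels. All 14881 genes entered 1 edgeR 4.0.16 fit (R 4.3.3) with TMM scaling, a mean per group and quasi-likelihood tests at a Benjamini-Hochberg adjusted p threshold of 0.05; the code was first tested on simulated data. The common biological coefficient of variation was 5.16%. Log2 CPM used a prior count of 2. DESeq2 1.42.0, limma 3.58.1 (voom with quality weights) and other settings served as alternatives. Each hippocampus came from 1 mouse per the study text.

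The receptors and gene lists were chosen with earlier results of these data known. All 10 receptors are named; fold changes with SE are printed where an unadjusted p was under 0.05 or for a neighbouring comparison, and genes of other lists are named where they passed or define a tissue. Genes around Htr7 were chosen after their values were seen. Promoter windows are RefSeq's (GRCm38.p6).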

Additional observations from a re-analysis of the deposited data

How the results depend on the processing

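Counts for mAdu with mVEGF-C include Htr1a, whose difference there was known beforehand, and are no evidence for it. The counts of receptors that passed did not change with DESeq2 size factors, a CPM filter of 1 in 3 libraries, no filter or the DESeq2 test. With limma-voom and quality weights, 5 receptors passed for any difference, where 25.5% of all genes did. For mAdu, 2 passed with eGFP (Htr1a and Htr7, 3.41% of all genes) and 2 with mVEGF-C (Htr1a and Htr2c, 8.29%). For mVEGF-C, 1 passed with mIgG (Htr2c, 6.3%) and 2 with mAdu (Htr4 and Htr7, 6.52%). Both treatments against neither gave 2 (Htr1a and Htr1b, 17.9%). For mAdu over both vectors 3 passed (Htr1a, Htr1b and Htr7, 11.3%), and 3 for mVEGF-C over both antibodies (Htr1b, Htr2c and Htr7, 12%). With choroid plexus marker level added as a covariate, and without libraries 3, 6, 9 and 12, 0 receptors passed for any difference, for mAdu with mVEGF-C, for both treatments against neither and for mAdu over both vectors. The Htr4 differences with the covariate were -0.01 for mAdu with mVEGF-C, -0.09 for mVEGF-C with mAdu and 0 for the difference between vectors. The marker level was lowest in the mVEGF-C+mAdu mice, so the covariate cannot be cleanly separated from that group. With only the groups compared, 0 passed for mAdu with mVEGF-C. Without mice 5 and 6, an alternative chosen after seeing the data that leaves a single eGFP+mAdu mouse, Htr1a lost its call for both treatments against neither. Fits with fewer libraries or an added term have fewer residual degrees of freedom. What made the calls move was not tested.

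Leaving out 1 library at a time gave 0 to 1 receptors for any difference, for mAdu with mVEGF-C, for both treatments against neither and for mAdu over both vectors, and 0 in each of the other comparisons. Htr1a kept a positive log2 change for mAdu, of 0.26 to 0.28 with mVEGF-C, a description of the difference the family was chosen with, and 0.10 to 0.17 with eGFP, where it passed in none (adjusted p 0.224 to 0.761).

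Over all genes, the number that passed moved by more than 1.5 times with the setting, limma-voom giving the highest counts: 2 to 3800 for any difference (92 in the main test), 2 to 507 for mAdu with eGFP (5), 0 to 1234 for mAdu with mVEGF-C (31), 2 to 937 for mVEGF-C with mIgG (6), 0 to 970 for mVEGF-C with mAdu (7), 2 to 2660 for both treatments against neither (324), 0 to 220 for the difference between vectors (2), 1 to 1681 for mAdu over both vectors (85) and 0 to 1789 for mVEGF-C over both antibodies (58). No paired analysis was possible because the titles number the samples 1 to 12 and no number is shared between groups. Depth limits Htr6 most, at 20 to 35 reads a library.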
